A study of Mus musculus with 16 samples.

Results

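The subject is the set of genes for serine, one-carbon and nucleotide synthesis: 32 enzyme genes, taken by symbol from a list, out of 24411 genes in the deposited tables. They cover the serine pathway (3 genes), folate one-carbon enzymes (5), synthesis of phosphoribosyl pyrophosphate or PRPP (2), purine synthesis (9), pyrimidine synthesis (5), deoxynucleotide and thymidylate supply (6) and nucleoside diphosphate kinases (2). All 32 passed the filter on low counts that kept 16665 genes. RNA-seq was done on bulk mouse tissue, 16 libraries in 5 groups. Celiac ganglia, which are sympathetic ganglia, came from mice aged 2 weeks. In 4 libraries the mice carried no MYCN transgene and had 2 functional alleles of Runx1t1, a transcriptional co-repressor gene (transgene-free Runx1t1 wild-type ganglia), and in 3 libraries they carried no transgene and were labelled Runx1t1 heterozygous, with 1 functional allele. Another 5 ganglion libraries came from mice homozygous for Th-MYCN, 3 with wild-type Runx1t1 (MYCN Runx1t1 wild-type ganglia) and 2 labelled Runx1t1 het. The last group was 4 neuroblastoma tumors, from mice that were also homozygous for Th-MYCN and wild-type for Runx1t1 and whose age the labels do not give. Th-MYCN is human MYCN under a tyrosine hydroxylase promoter, which directs it to cells of neuroectodermal origin, while a ganglion in bulk also holds glia, fibroblasts and vessels. The expression tables list mouse genes, so MYCN RNA from the human transgene was not analysed here. No label says that replicates of a group are separate animals, so the p-values measure the spread between these samples.

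Serine is made from a glycolytic intermediate by Phgdh, Psat1 and Psph in turn. Serine hydroxymethyltransferases move a carbon from serine to folate, and the Mthfd enzymes pass that unit between mitochondria and cytosol for purine rings and for thymidylate. PRPP supplies the ribose on which purines are assembled and to which orotate is joined in pyrimidine synthesis, and ribonucleotide reductase turns ribonucleotides into the deoxynucleotides used for DNA. MYC proteins bind the E-box CACGTG, and several of these genes are textbook MYC targets.

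Because the mice differ in a MYCN transgene, the E-box was looked for in the promoters. RefSeq promoter windows (GRCm38.p6, from 250 bases before to 50 after each start, 300 bases) were matched by symbol for 29 of the 32 genes. The letters CACGTG, which read the same on both strands, were in the windows of 6 of them (20.7%), compared with 2187 of all 27025 genes with a window (8.09%). A match is a description of the sequence and not a measured binding site. The stretches below are shown because they hold these matches. Each runs 5′ to 3′ on the gene's strand with the E-box in capitals. In the GENCODE annotation the Atic and Impdh2 stretches overlap an exon of the gene itself, the second Nme1 stretch overlaps exons of Nme1 and Gm20390, the Paics stretch overlaps an exon of Ppat, and the others overlap no exon.
Atic, 7 bases upstream, plus strand, chr1:71557137-71557155: ggacctcggggtCACGTGg
Dtymk, 148 bases upstream, minus strand, chr1:93802065-93802094: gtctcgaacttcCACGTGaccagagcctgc
Impdh2, 110 bases upstream, plus strand, chr9:108560314-108560343: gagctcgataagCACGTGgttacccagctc
Nme1, 29 bases upstream of 1 start, minus strand, chr11:93968037-93968066: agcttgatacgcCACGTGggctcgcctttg
Nme1, 18 bases upstream of another start, minus strand, chr11:93968273-93968302: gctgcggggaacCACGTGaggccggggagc
Paics, 203 bases upstream, plus strand, chr5:76951087-76951116: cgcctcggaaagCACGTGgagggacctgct
Tyms, 61 bases upstream, minus strand, chr5:30073669-30073698: aaccacttctgtCACGTGggggcggggtct
The 6 genes with these letters had tumor to ganglion differences from 0.45 (Paics) to 3.80 (Tyms) on the log2 scale, and genes without them spanned a range that included both.

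Libraries held from 10692299 to 38618757 counts, and 6 of 16 held under 20000000. All 6 were ganglia, among them both MYCN ganglia labelled het, while tumors held 27096032 to 38618757. With a depth term the members called in tumors against transgene-free Runx1t1 wild-type ganglia stayed at 26 higher and 4 lower, beside 55.6% of all genes tested. In libraries over 20000000 counts they were 24 and 3, beside 52.5%. All 11 sympathetic neuron markers, among them Th and Dbh, were above 0 TPM in every library. Their summed level was 7503 to 20951 TPM in transgene-free Runx1t1 wild-type ganglia and 1819 to 3115 TPM in tumors. The 11 did not all move with the sum: 8 were lower and 2 higher in tumors by the edgeR test used below. Of 3 chromaffin markers 2 were higher and 0 lower. Among all genes tested, 30.7% were lower and 27% higher. Glia markers (7 genes) summed to 544 to 1960 TPM in those ganglia and to 12.9 to 20.1 TPM in tumors. Fibroblast markers (6 genes) summed to 1884 to 7899 TPM in those ganglia and 171 to 506 TPM in tumors, endothelium markers (5 genes) to 43.4 to 511 and 26.9 to 68.6 TPM, and myeloid markers (5 genes) to 30.6 to 2074 and 223 to 693 TPM. The summed level of 16 genes of cycling cells was 132 to 616 TPM in those ganglia, 205 to 2086 TPM in MYCN Runx1t1 wild-type ganglia and 2434 to 3197 TPM in tumors. Replicate 2 of the transgene-free Runx1t1 wild-type ganglia stood apart, with 508 TPM of lymphocyte markers and 2074 TPM of myeloid markers against at most 4.87 and 107 TPM in the other 3. Tumor replicate 3 had 5300 TPM of 3 liver markers, against 1.41 to 57.4 TPM in the other tumors and at most 303 TPM in ganglia; without it the members called against transgene-free Runx1t1 wild-type ganglia stayed at 26 higher and 4 lower, and Shmt1 was at log2 4.42. Runx1t1 RNA did not separate the het label from wild-type without overlap: it was 13.1 to 18.2 CPM in transgene-free ganglia labelled het and 8.47 to 13.1 CPM in the wild-type ones. In MYCN ganglia it was 25.3 and 49.9 CPM in those labelled het and 243, 23.4 and 111 CPM in the wild-type ones. Ddx3y, used here to read sex, was over 1 CPM in 3 of the 4 tumors (39.5 to 48.1 CPM). Among the transgene-free Runx1t1 wild-type ganglia it was over 1 CPM in replicate 2 alone (72.2 CPM), so sex was not balanced between these groups. With a sex term the members called between them stayed at 26 higher and 4 lower, and 53.6% of all genes tested were called. The ganglion libraries are also given the cell type neuroblastoma in the labels. In bulk tissue, a change in the number of cells of a type and a change in RNA per cell cannot be told apart.

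In tumors most of the enzymes had more RNA than in transgene-free Runx1t1 wild-type ganglia, with 4 that had less. Of the 32 genes, 26 were higher and 4 lower by edgeR's quasi-likelihood test with Benjamini-Hochberg adjustment over 16665 genes at a threshold of 0.05. Among all genes tested, 27% were higher and 30.7% lower. The 4 lower genes were Phgdh, Prps2, Rrm2b and Ctps2, and the 2 without a call were Psph and Impdh1. The median log2 fold change was 1.24 over the 32 genes and -0.11 over all genes tested. CPM values of the groups did not overlap for 23 genes above and 3 below, where 23.8% and 23% of all genes tested did so. In TPM this held for 18 genes above and 4 below, where 15.4% and 32.9% of all genes tested did so. The 4 called genes with overlapping groups in CPM were Shmt2, Mthfd1l, Prps1 and Ctps2. In TPM the Ctps2 groups did not overlap, while those of the called genes Paics, Adsl, Atic, Nme1 and Nme2 did. The calls stayed at 26 and 4 without replicate 2 of the ganglia. On the log2(TPM + 1) scale the median gene moved by -0.38 relative to the CPM scale, 22 members were higher and 4 lower by limma, and 17.7% of all genes tested were higher and 39.6% lower.

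**Figure D1:**
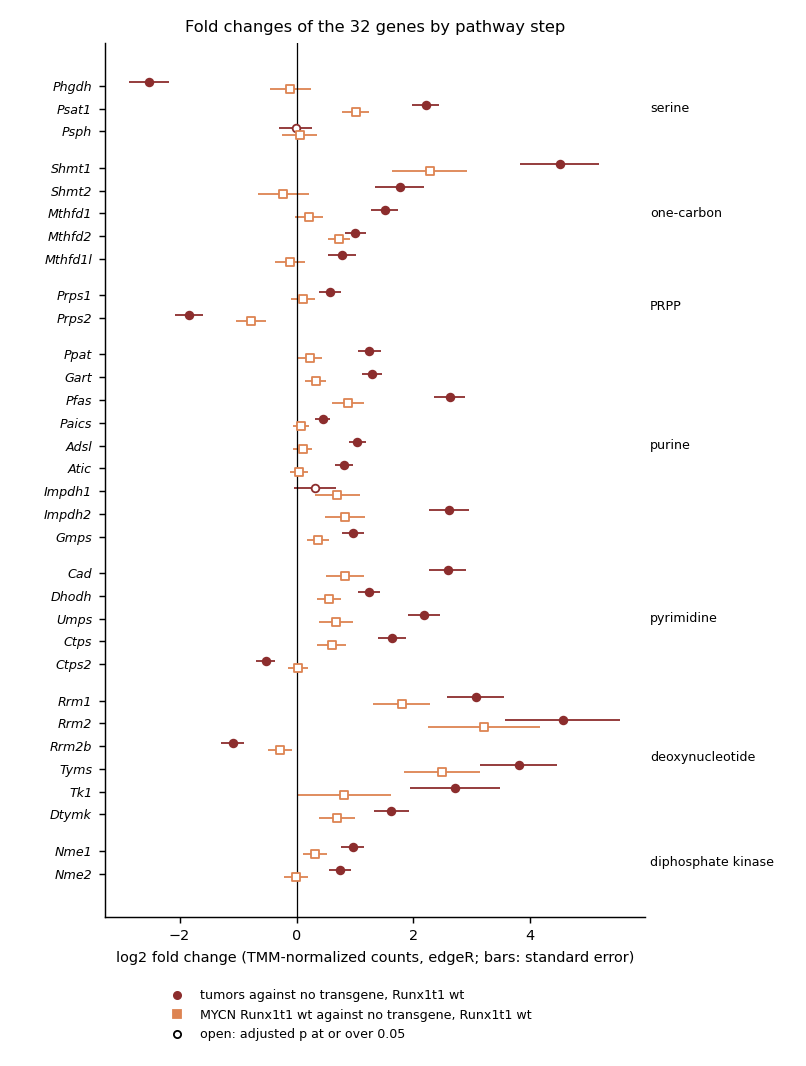
Log2 fold changes with standard errors for the 32 genes, by pathway step, in tumors (n = 4, circles) and in MYCN Runx1t1 wild-type ganglia (n = 3, squares), both against the same 4 transgene-free Runx1t1 wild-type ganglia; filled symbols passed an adjusted p of 0.05 and open ones did not. Filled circles lie to the right of 0 for 26 genes and to the left for Phgdh, Prps2, Ctps2 and Rrm2b, and no square is filled.

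The serine pathway did not move as a block. Phgdh (chromosome 3, 98313170 to 98339990), the first enzyme, had 42.1, 42.9, 46.3 and 35.5 CPM (counts scaled to library size with TMM factors) in the 4 transgene-free Runx1t1 wild-type ganglia and 9.12, 8.81, 7.71 and 3.48 CPM in the 4 tumors. Every tumor was below every ganglion of the 12, and the fall was 5.73-fold (log2 fold change -2.52, SE 0.34, edgeR adjusted p = 4.41e-05). Psat1 (chromosome 19, 15904678 to 15947337), the aminotransferase of the next step, went the other way. It had 21.1, 26.2, 29.1 and 16.8 CPM in these ganglia and 98.0, 125, 107 and 102 CPM in tumors, with no overlap and a 4.64-fold rise (log2 2.21, SE 0.23, edgeR adjusted p = 6.61e-06). Psph, the phosphatase that releases serine, was 11.5 ± 3.88 CPM (SD, n = 4) in ganglia and 11.4 ± 2.37 CPM (n = 4) in tumors, a log2 difference of -0.01 (SE 0.28). The summed TPM of the 3 genes was 107 ± 15.4 in ganglia and 119 ± 13.6 in tumors. Within ganglia Phgdh had the highest TPM of the 3 (59.1 ± 6.0), and within tumors Psat1 did (96.5 ± 9.95) with Phgdh the lowest (7.70 ± 2.74). The 7 glia markers were all lower in tumors too, with a median log2 fold change of -5.59, as were all 6 fibroblast and 4 of 5 endothelium markers, and the part of these in the Phgdh difference was not tested.

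All 5 folate one-carbon enzymes were higher in tumors. Shmt1, the cytosolic serine hydroxymethyltransferase, had the greatest rise of the 5. It had 0.800, 8.58, 4.62 and 2.33 CPM in the transgene-free Runx1t1 wild-type ganglia and 46.2, 96.6, 108 and 116 CPM in tumors. The groups were far apart, by 22.7-fold (log2 4.50, SE 0.67, edgeR adjusted p = 8.78e-05), although the ganglia differed widely among themselves. Without replicate 2 of the ganglia the log2 fold change was 5.12. Shmt2, the mitochondrial form, had 29.7, 55.8, 26.7 and 23.2 CPM in these ganglia and 29.0, 181, 132 and 116 CPM in tumors. In CPM tumor replicate 1 thus lay among the ganglia while the other 3 tumors were above all of them, and the 3.40-fold difference passed the test (log2 1.77, SE 0.41, edgeR adjusted p = 0.00247). In TPM that tumor was at 24.31, below each of these ganglia (27.15 to 58.53 TPM). The difference on that scale was log2 1.14 (limma adjusted p = 0.0325). Mthfd1, the cytosolic trifunctional enzyme, rose 2.85-fold from 36.2 ± 9.31 to 103 ± 27.2 CPM (edgeR adjusted p = 0.0001). Mthfd2, the mitochondrial dehydrogenase, rose 2.01-fold (edgeR adjusted p = 0.00031), with tumors in a narrow range of 59.7 to 67.7 CPM. Mthfd1l, the mitochondrial formate-producing synthetase, rose 1.71-fold (edgeR adjusted p = 0.0146), with 1 tumor at 42.5 CPM below 1 ganglion at 48.7 CPM. On the TPM scale the last difference was 0.37 and did not pass (limma adjusted p = 0.145), and without tumor replicate 2 it was 0.61 (edgeR adjusted p = 0.0525).

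The 2 PRPP synthetases, both on the X chromosome, moved apart. Prps2 had 101, 55.6, 62.0 and 91.6 CPM in transgene-free Runx1t1 wild-type ganglia and 18.5, 24.7, 18.1 and 25.6 CPM in tumors. All tumors were below all ganglia, by 3.57-fold (log2 -1.84, SE 0.24, edgeR adjusted p = 3.57e-05). Prps1 was 38.7 ± 10.9 CPM in these ganglia and 57.5 ± 8.63 CPM in tumors, with overlapping groups (1.48-fold, edgeR adjusted p = 0.0192). Its call was lost on the TPM scale (adjusted p = 0.451 by limma), in libraries over 20000000 counts (adjusted p = 0.0584 by edgeR), in a fit of the 2 groups alone (0.0584), and without replicate 3 of the ganglia (0.0612) or tumor replicate 4 (0.0625).

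**Figure D2:**
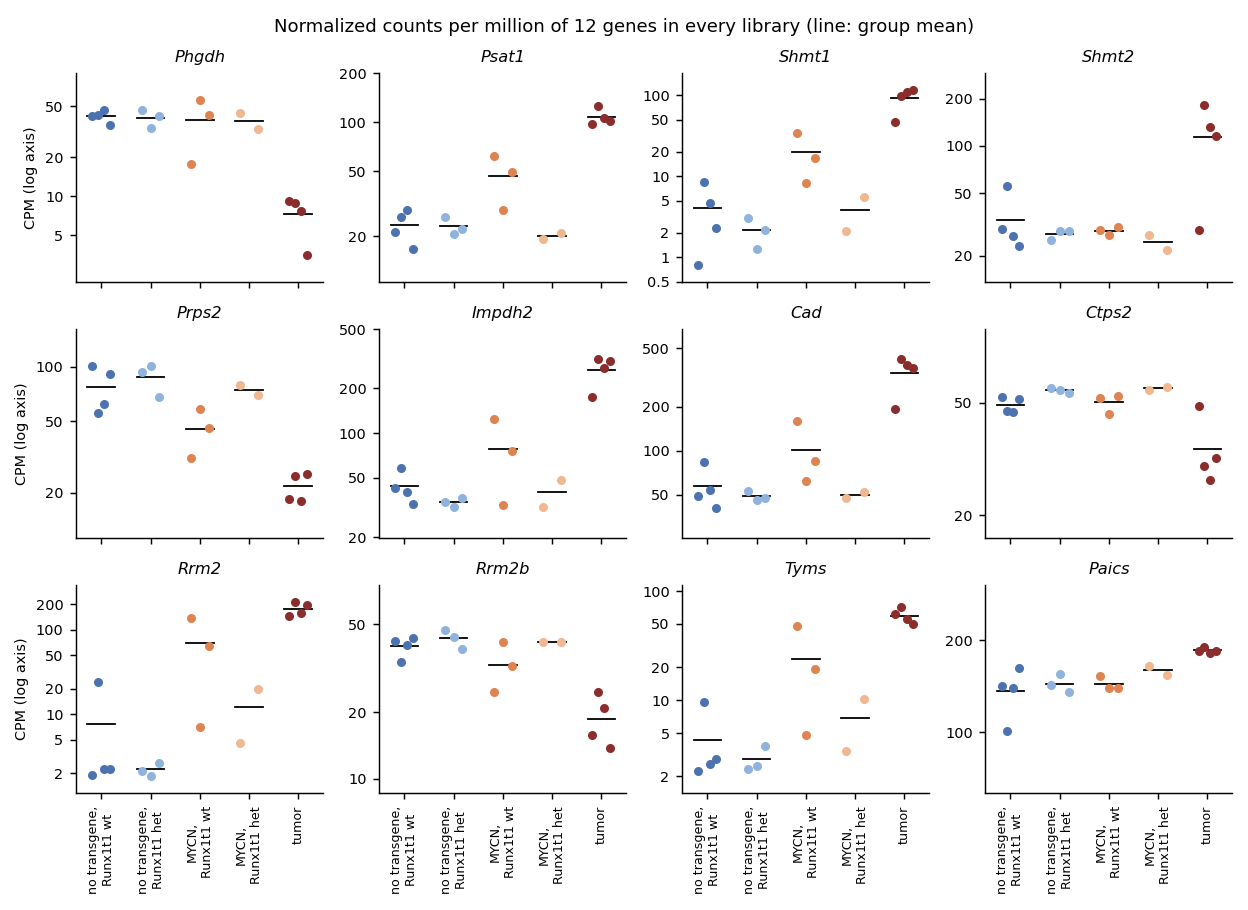
TMM-normalized CPM on a log axis for 12 of the 32 genes, with 1 point per library and a line at the mean of each of the 5 groups. The 4 tumors lie below all 12 ganglia for Phgdh, Prps2 and Rrm2b, and above all 12 for Psat1, Shmt1, Impdh2, Cad, Rrm2, Tyms and Paics.

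Of the 9 purine genes 8 were higher in tumors, with sizes that differed along the pathway. Pfas, which adds an amide nitrogen at the fourth step, had 19.7, 40.8, 30.0 and 27.3 CPM in transgene-free Runx1t1 wild-type ganglia and 139, 199, 188 and 198 CPM in tumors. The rise was 6.15-fold (log2 2.62, SE 0.27, edgeR adjusted p = 6.26e-06). Impdh2, the IMP dehydrogenase that opens the branch to GMP, had 42.9, 58.6, 40.3 and 33.2 CPM in these ganglia and 174, 313, 275 and 306 CPM in tumors, 6.11-fold apart (log2 2.61, SE 0.34, edgeR adjusted p = 3.36e-05). For both genes the lowest tumor was at least 139 CPM and the highest of the 4 ganglia at most 58.6 CPM. Their rises differed by less than their standard errors, and the other 6 rose less. Gart, a trifunctional enzyme, rose 2.44-fold, Ppat, the committed step, 2.37-fold, and Adsl, which acts in IMP and in AMP synthesis, 2.06-fold. Gmps, which makes GMP, rose 1.95-fold and Atic, which closes the ring, 1.76-fold. Paics, the bifunctional enzyme in the middle of the pathway, rose least at 1.36-fold (log2 0.45, SE 0.13, edgeR adjusted p = 0.00916), from 101 to 162 CPM in ganglia to 182 to 190 CPM in tumors. That call was lost on the TPM scale (0.05 log2, limma adjusted p = 0.8) and in libraries over 20000000 counts (edgeR adjusted p = 0.0572). Impdh1 was 74.5 ± 16.4 CPM in ganglia and 93.1 ± 20.3 CPM in tumors (log2 0.32, SE 0.36), and its sign turned on the TPM scale (-0.09). Ppat and Paics are neighbours on chromosome 5 that start head to head and overlap at their first exons, and no source used here says whether counting used the strand.

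Among pyrimidine genes 4 of 5 were higher in tumors. Cad, whose protein carries out the first 3 steps, had 49.1, 83.8, 54.2 and 40.7 CPM in transgene-free Runx1t1 wild-type ganglia and 191, 424, 383 and 369 CPM in tumors. Every tumor was above every ganglion, by 6.01-fold (log2 2.59, SE 0.32, edgeR adjusted p = 2.3e-05). Umps, which makes UMP, rose 4.54-fold (edgeR adjusted p = 2.74e-05) from 19.1 ± 4.02 to 86.4 ± 19.3 CPM. Ctps, a CTP synthetase, rose 3.10-fold, and Dhodh, the mitochondrial enzyme between Cad and Umps, 2.36-fold. Ctps2, the other CTP synthetase and also X-linked, had 52.5, 46.7, 46.4 and 51.6 CPM in these ganglia and 48.6, 29.8, 26.7 and 31.9 CPM in tumors. Tumor replicate 1 again lay among the ganglia and the other 3 tumors were below them (it was the lowest of the 4 tumors for 23 of the 32 genes, as for 29.7% of all genes tested, and the calls stayed at 26 and 4 without it), and the 1.44-fold fall passed the test (log2 -0.53, SE 0.16, edgeR adjusted p = 0.013) but not in libraries over 20000000 counts (edgeR adjusted p = 0.0938).

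In deoxynucleotide and thymidylate supply 5 of 6 genes were higher, with a median log2 fold change of 2.89 over the 6. Rrm2 (chromosome 12, 24708241 to 24714146), the small subunit of ribonucleotide reductase made in S phase, had 1.92, 24.3, 2.26 and 2.27 CPM in transgene-free Runx1t1 wild-type ganglia and 143, 211, 156 and 194 CPM in tumors. The 24.3 CPM belonged to ganglion replicate 2, which also had 368 CPM of Mki67, a marker of cycling cells, against 38.8 to 64.5 CPM in the other 3. The rise was 23.5-fold with that library (log2 4.56, SE 0.98, edgeR adjusted p = 0.00137), and the log2 fold change was 6.36 without it. Tyms, thymidylate synthase, had 2.24, 9.62, 2.61 and 2.87 CPM in these ganglia and 61.5, 71.3, 55.1 and 50.4 CPM in tumors (log2 3.80, SE 0.66, edgeR adjusted p = 0.000267), and log2 4.54 without ganglion replicate 2. Rrm1, the large reductase subunit, rose 8.35-fold from 21.7 to 52.9 CPM to 220 to 275 CPM. Tk1, the thymidine kinase of cycling cells, rose 6.55-fold, and its log2 fold change went from 2.71 to 4.05 without ganglion replicate 2. Dtymk, thymidylate kinase, rose 3.08-fold. Rrm2b, the small subunit that p53 induces and that serves cells outside S phase, fell: it had 42.1, 33.7, 40.4 and 43.4 CPM in these ganglia and 15.8, 24.5, 20.8 and 13.8 CPM in tumors (2.13-fold, log2 -1.09, SE 0.20, edgeR adjusted p = 0.000382). All 16 cycling-cell genes were higher in tumors in the same test, with a median log2 fold change of 4.17, and their part in the rise of the deoxynucleotide genes was not tested.

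Both nucleoside diphosphate kinases, which turn diphosphates into triphosphates, were modestly higher in tumors. Nme1 was 84.0 ± 24.4 CPM in transgene-free Runx1t1 wild-type ganglia and 164 ± 16.9 CPM in tumors (1.95-fold, edgeR adjusted p = 0.000893). Nme2 was 73.3 ± 23.8 and 123 ± 9.74 CPM (1.68-fold, edgeR adjusted p = 0.00344), and its call was lost on the TPM scale (limma adjusted p = 0.0593). The genes are neighbours on chromosome 11 and the annotation places another gene model, Gm20390, over both, so how RSEM shared reads between them is uncertain. No run of 50 bases was shared by their coding transcripts.

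TPM, which is scaled by length, allows levels to be compared between genes. In transgene-free Runx1t1 wild-type ganglia the order began with Nme2 (255 ± 65.3 TPM), Nme1 (195 ± 61.0) and Paics (149 ± 34.1), whose ranges overlapped in turn, and it ended with Tk1 (7.26 ± 8.65), Shmt1 (5.06 ± 3.96) and Tyms (2.76 ± 2.08), which overlapped as well. In tumors it began with Impdh2 (331 ± 77.9), Nme2 (320 ± 29.1) and Nme1 (280 ± 26.7), which were within their spread of each other, followed by Rrm2 (157 ± 25.5) and Paics (150 ± 1.82). It ended there with Prps2 (11.1 ± 1.84), Phgdh (7.70 ± 2.74) and Rrm2b (7.67 ± 1.99). Summed over the 32 genes, the level was 1537 ± 92.1 TPM in transgene-free Runx1t1 wild-type ganglia, 1531 ± 36.9 in transgene-free ganglia labelled het, 1954 ± 257 in MYCN Runx1t1 wild-type ganglia, 1666 ± 91.4 in MYCN ganglia labelled het and 2801 ± 412 in tumors. By group mean the purine genes made up the largest branch in each of these groups, with 514 ± 44.8 TPM in the first and 921 ± 149 TPM in the last. In MYCN ganglia labelled het they were close to the diphosphate kinases (546 ± 17.0 and 533 ± 31.7 TPM). In replicate 2 of the transgene-free Runx1t1 wild-type ganglia the diphosphate kinases were higher (490 against 458 TPM).

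Pairs of enzymes for the same reaction were then compared as a ratio of TPM within each library, in which library scaling cancels. The libraries and genes are those of the calls above, so the ratios describe the same differences again and are not separate support. With 0.1 added to each TPM, 5 of 7 pairs differed between tumors and transgene-free Runx1t1 wild-type ganglia without overlap (exact two-sided permutation test, p = 0.0286 each, the smallest that 4 against 4 can give, 0.04 after Benjamini-Hochberg adjustment over the 7). Of single genes tested, 15.4% were above and 32.9% below without overlap in TPM. The share over other pairs of genes was not computed, so the count of 5 has no background of its own. The permutation test exchanges labels over all 8 libraries. With labels exchanged only within the 4 same-numbered pairs, 0 of 7 passed, since p cannot then go below 0.125 (0.146 adjusted). Each of the 5 ratios moved the same way in 4 of 4 pairs. Shmt2 made up 97.1, 85.2, 83.7 and 89.8% of the Shmt pair in the ganglia and 35.8, 62.5, 52.1 and 47.0% in tumors, a log2 ratio lower by 3.25. The mitochondrial gene dominated in every one of these ganglia and the pair was near parity in tumors. Prps1 made up 49.0, 50.1, 48.6 and 49.6% of its pair in the ganglia and 83.8, 82.2, 85.0 and 83.9% in tumors. Both groups were tight, and the log2 ratio rose by 2.39. Impdh2 went from 48.5 ± 10.5% to 81.9 ± 0.817% of the Impdh pair (log2 ratio up by 2.26), and Ctps from 69.1 ± 2.76% to 90.8 ± 3.12% of the Ctps pair (up by 2.19). Rrm2 made up 9.10, 61.2, 10.8 and 10.2% of the Rrm2 and Rrm2b sum in the ganglia and 95.2, 94.9, 94.2 and 96.8% in tumors, where the log2 ratio was higher by 6.53. The ganglion at 61.2% was again replicate 2, without which the difference was 7.47. The Mthfd2 to Mthfd1 ratio was lower in tumors by 0.48 on the log2 scale (exact permutation p = 0.171) and the Nme1 to Nme2 ratio higher by 0.21 (exact permutation p = 0.657), both with overlap. Within same-numbered pairs the Mthfd2 to Mthfd1 ratio was also lower in 4 of 4, like the 5 ratios above. Its exact p with labels exchanged within pairs was 0.125 (0.146 adjusted). The Nme1 to Nme2 ratio was higher in 3 of 4 pairs.

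**Figure D3:**
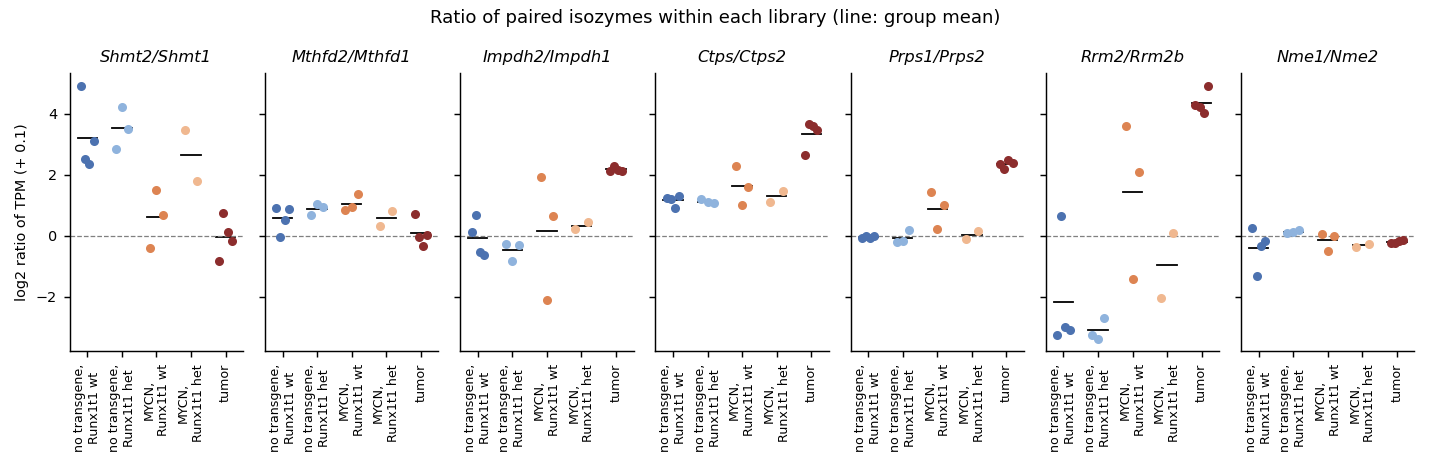
Log2 ratio of TPM, with 0.1 added to each value, for 7 pairs of enzymes of the same reaction; each point is a library and each line a group mean. In the 4 tumors the Impdh2, Ctps, Prps1 and Rrm2 ratios lie above those of the 4 transgene-free Runx1t1 wild-type ganglia and the Shmt2 to Shmt1 ratio lies below, while the Nme ratios overlap.

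Against the ganglia of mice with the same transgene, most of the tumor differences had the same direction. Tumors against MYCN Runx1t1 wild-type ganglia had 19 genes higher and 4 lower by edgeR, compared with 14% and 20.5% of all genes tested. On the TPM scale limma called 14 higher and 4 lower, beside 7.24% and 30% of all genes tested. The 4 lower genes were again Phgdh (5.33-fold), Prps2 (2.08-fold), Rrm2b (1.75-fold) and Ctps2 (1.47-fold). By edgeR with only the groups compared, neither Rrm2b (adjusted p = 0.0635) nor Ctps2 (0.0895) passed, and Rrm2b did not without MYCN replicate 3 (0.0636). Ctps2 passed in 11 of 17 alternatives, and was lost without MYCN replicate 4 (0.0832), without tumor replicate 2, 3 or 4 (0.059 to 0.0652) and in libraries over 20000000 counts (0.0746). Psat1 was 2.30-fold higher, Impdh2 3.44-fold, Cad 3.37-fold, Pfas 3.34-fold and Shmt1 4.68-fold. Shmt1 did not pass without MYCN replicate 3 (log2 1.86, edgeR adjusted p = 0.0895) or 4 (log2 2.12, edgeR adjusted p = 0.0772). Its log2 fold change was 2.23 as reported and ran from 1.86 to 2.86 over 17 alternatives. In the deoxynucleotide branch edgeR called Dtymk alone higher (1.91-fold, adjusted p = 0.0351), and which gene passed changed with the setting. Dtymk passed in 9 of 17 alternatives, with adjusted p up to 0.157 (without MYCN replicate 3), and was also lost without MYCN replicate 4 (0.083) or tumor replicate 2, 3 or 4 (0.059 to 0.0784). On the TPM scale it did not pass (limma adjusted p = 0.0942) while Rrm1 (0.0448) and Tk1 (0.045) did, as both did by DESeq2 (0.0255 and 0.0351) and by edgeR without MYCN replicate 1 (0.00846 and 0.049). Rrm2 was 2.54-fold (edgeR adjusted p = 0.288), Rrm1 2.40-fold (0.0642), Tyms 2.50-fold (0.133) and Tk1 3.71-fold (0.0919). Without MYCN replicate 1 the 4 were 4.96, 3.95, 4.89 and 6.15-fold, and Tyms passed too (edgeR adjusted p = 0.0195), as it did in 3 of 17 alternatives. Without MYCN replicate 3 they were 1.75, 1.74, 1.78 and 2.63-fold, and none passed (edgeR adjusted p = 0.15 to 0.569). In CPM no MYCN Runx1t1 wild-type ganglion reached the lowest tumor for these 4, while in TPM replicate 1 did for Rrm2 (147 against tumors from 127.6) and Tyms (27.7 against tumors from 24.5). The share of all genes tested without overlap was not computed for this comparison, so this describes the 4 genes only. Against MYCN ganglia labelled Runx1t1 het, 24 genes were higher and 4 lower, compared with 22% and 23.5% of all genes tested, and on the TPM scale 18 higher and 4 lower, beside 13.4% and 34.5%. Rrm2 was among them by edgeR (14.3-fold, log2 3.84, adjusted p = 0.0247), but not without replicate 1 (log2 3.14, adjusted p = 0.187) or 2 (log2 5.26, adjusted p = 0.0501) of these ganglia or with a sex term (log2 3.17, adjusted p = 0.0534). Leaving out either of these 2 ganglia leaves 1 library, which is assumed to vary like the other groups. Its log2 fold change was 5.15 with the replicate block and 5.61 with a depth term. These comparisons share the tumors, so their values are given side by side only. Leaving out replicate 4 of the MYCN Runx1t1 wild-type ganglia lowered the first count from 23 to 15 calls (24.4% of all genes tested), and leaving out replicate 1 of the MYCN ganglia labelled het lowered the second from 28 to 17 (24.8%), again with 1 library left in that group.

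At 2 weeks no member passed the test when wild-type Runx1t1 ganglia with and without the transgene were compared. By edgeR 0.834% of all genes tested were higher and 0.102% lower. At an unadjusted p under 0.05, 13 of the 32 were higher and 1 lower, compared with 11.7% and 8.1% of all genes tested, and DESeq2 called 7 higher (6.13% of all genes that it tested). The log2 fold change was above 0 for 26 of 32, with a median of 0.35 against -0.04 over all genes tested. Psat1 had the lowest adjusted p: its 3 MYCN ganglia had 62.5, 28.7 and 49.6 CPM against 16.8 to 29.1 CPM in the transgene-free ones (2.01-fold, SE 0.24 on the log2 scale, edgeR adjusted p = 0.0576). Only the library at 28.7 CPM lay within the transgene-free range. Dhodh was the 1 gene whose groups did not overlap in CPM, with 14.3, 11.9 and 11.3 CPM against 7.12 to 9.45 CPM (1.47-fold, edgeR adjusted p = 0.168), where 4.72% of all genes tested were above without overlap. In TPM Shmt1 was also above without overlap (10.8 to 38.3 against 1.03 to 10.2 TPM), beside 4.93% of all genes tested. The largest fold differences, none of which passed, were in Rrm2 (9.27-fold, edgeR adjusted p = 0.104), Tyms (5.59-fold, 0.0759), Shmt1 (4.84-fold, 0.0943) and Rrm1 (3.48-fold, 0.0807). Over 17 alternatives their log2 fold changes ran from 2.248 to 4.995 for Rrm2 and from 1.513 to 3.199 for Tyms. Those of Shmt1 ran from 1.639 to 2.88 and those of Rrm1 from 1.081 to 2.266. Rrm2, Tyms and Shmt1 each passed in 3 of the 17 alternatives, and Rrm1 passed in 4. Mthfd2 was 1.65-fold (edgeR adjusted p = 0.0747), Pfas 1.84-fold (0.114) and Prps2 1.71-fold lower (0.132). Phgdh, which fell in tumors, was 38.7 ± 19.3 CPM in the MYCN Runx1t1 wild-type ganglia and 41.7 ± 4.53 CPM in the transgene-free ones.

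The 3 MYCN Runx1t1 wild-type ganglia were unlike each other, and the pathway genes varied with them. Rrm2 had 138, 7.02 and 63.8 CPM in replicates 1, 3 and 4, Tyms 47.7, 4.81 and 19.5 CPM, and Rrm1 187, 25.0 and 102 CPM. The summed cycling-cell genes were 2086, 205 and 1104 TPM in the same libraries. Replicate 1 was thus the highest and replicate 3 the lowest for all of these. For 20 of the 32 genes replicate 1 was highest, replicate 4 next and replicate 3 lowest, as were 32.9% of all genes tested, and 5 of the 6 deoxynucleotide genes and 7 of the 9 purine genes were among the 20. Replicate 1 also had the lowest Phgdh of the 12 ganglia (17.9 CPM) and the lowest Prps2 (31.2 CPM) and Rrm2b (24.7 CPM), which were lower in tumors, but its Ctps2, the other gene lower in tumors, was at 51.9 CPM against 45.8 and 52.9 CPM in replicates 3 and 4. The same library had the lowest summed glia markers of the 12 ganglia (475 TPM, against 1815 and 1255 TPM in replicates 3 and 4), sympathetic neuron markers (6864, against 12579 and 10418 TPM) and fibroblast markers (888, against 3616 and 2946 TPM), and their part in these values was not tested. Impdh1 ran otherwise, with 51.9, 233 and 77.2 CPM, so that the library of the 3 with the lowest cycling-cell sum had the most Impdh1. Without replicate 3 edgeR called 11 members higher, among them Rrm1, Tyms, Psat1, Cad and Impdh2, and 1 lower (Prps2), when 8.76% and 2.12% of all genes tested were called. Without replicate 2 of the transgene-free ganglia it called 6 higher (3.46% of all genes tested), namely Psat1, Shmt1, Pfas, Rrm1, Rrm2 and Tyms. Depth did not follow this order: replicates 1, 3 and 4 held 11240429, 24873952 and 35779888 counts.

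**Figure D4:**
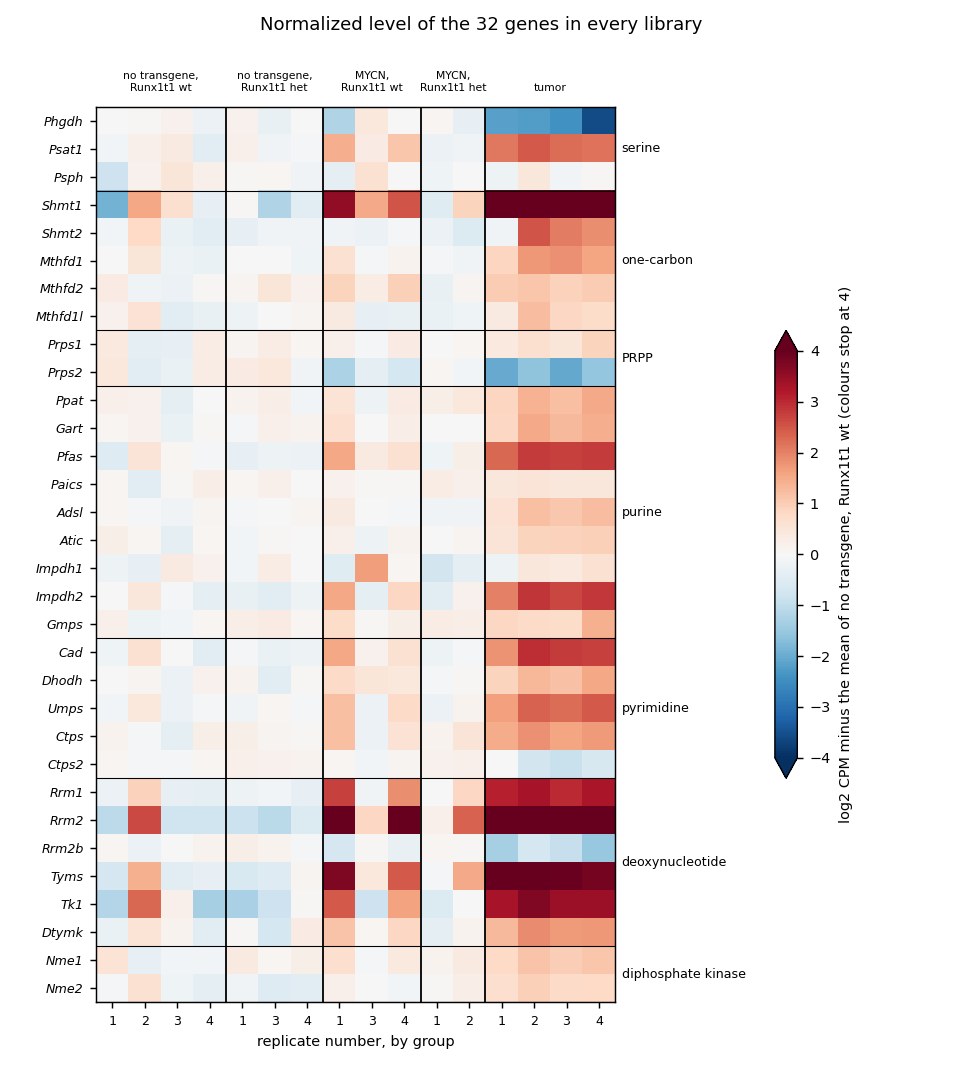
Log2 CPM of the 32 genes in each of the 16 libraries minus the gene's mean over the 4 transgene-free Runx1t1 wild-type ganglia, with genes in rows by pathway step and libraries in columns by group; colours stop at 4 on either side. The 4 tumors are red in most rows and blue for Phgdh, Prps2 and Rrm2b, and among the 3 MYCN Runx1t1 wild-type ganglia replicate 1 is the most like them.

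The Runx1t1 het label brought no call among the 32 genes. In MYCN ganglia 2 genes (0.012%) of all tested were called for het against wild-type, none of them a member. At an unadjusted p under 0.05, 11 members were lower in ganglia labelled het and 1 higher, compared with 7.42% and 5.15% of all genes tested, and DESeq2 called 1 lower (0.701% of all genes that it tested). Among these 12 the largest difference was in Shmt1, with 2.11 and 5.48 CPM in the 2 libraries labelled het and 8.36 to 33.9 CPM in the wild-type ones (log2 -2.37), and the lowest p was that of Psat1, with 19.3 and 20.8 CPM against 28.7 to 62.5 CPM (log2 -1.22). Over 14 alternatives these log2 values ran from -3.21 to -1.73 for Shmt1 and from -1.48 to -0.96 for Psat1. The edgeR adjusted p was 0.332 for Shmt1 and 0.243 for Psat1. Prps2 was the 1 higher gene, with 78.9 and 69.5 CPM against 31.2 to 58.6 CPM (edgeR adjusted p = 0.376). Cycling-cell genes summed to 167 and 454 TPM in the 2 libraries labelled het, and their part in these differences was not tested. Without replicate 3 of the MYCN Runx1t1 wild-type ganglia 3 members were called lower, as were 1.42% of all genes tested. In transgene-free ganglia the het label gave 0 calls by edgeR among the members, 0 at an unadjusted p under 0.05 and 0 by DESeq2, and 0% of all genes tested were called by edgeR and 0.0104% by DESeq2. There 687 of all 16665 genes tested had an unadjusted p under 0.05. Between MYCN and transgene-free ganglia that were both labelled het the count was also 0 (0% of all genes tested, and 0 by DESeq2, which called 0.0675%), and 1 member, Rrm2, had an unadjusted p under 0.05, with 4.58 and 20.1 CPM against 1.86 to 2.67 CPM. Of all 16665 genes tested, 242 had an unadjusted p under 0.05 in that comparison. The interaction of transgene and label gave 0 calls (0% of all genes tested, and 0 members by DESeq2, which called 0.19%), with Psat1 and Mthfd2 the 2 members at an unadjusted p under 0.05 (edgeR adjusted p = 0.845 for both). For the interaction 937 of all 16665 genes tested were under that unadjusted threshold. The smallest group had 2 libraries of 14221960 and 12367963 counts, so these counts of 0 do not show that the levels were alike.

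Other genes of the same pathways were read from a list of 64, of which 63 were tested. In tumors against transgene-free Runx1t1 wild-type ganglia 21 were higher and 17 lower by edgeR, beside 27% and 30.7% of all genes tested. By process, 10 of 25 one-carbon and folate genes were higher and 7 lower, 3 of 16 purine interconversion and salvage genes were higher and 5 lower, and 8 of 22 pyrimidine salvage and deoxynucleotide supply genes were higher and 5 lower. Their median log2 fold changes were 0.44, -0.14 and 0.18 in that order, against -0.11 over all genes tested. Folate genes that rose included the mitochondrial dehydrogenase Aldh1l2 (6.04-fold), the glycine cleavage enzyme Gldc (16.2-fold, from 0.434 to 1.66 CPM to 5.51 to 27.1 CPM, and log2 3.41 against 4.01 without tumor replicate 3) and the folate carrier Slc19a1 (2.15-fold). On the TPM scale the log2 differences were 1.96, 2.11 and 0.61 in that order, and each passed (limma adjusted p = 0.000291, 0.000367 and 0.0132). The mitochondrial folate carrier Slc25a32 fell (log2 -0.57, edgeR adjusted p = 0.0248). Of the 2 purine phosphoribosyltransferases of salvage, Hprt fell (log2 -0.80, edgeR adjusted p = 0.000545). Aprt was 1.39-fold higher on the CPM scale (edgeR adjusted p = 0.0279) with overlapping groups, and 0.02 log2 apart on the TPM scale (limma adjusted p = 0.926). Dut and Dctpp1, which clear unwanted nucleotides, rose 9.41-fold and 8.05-fold, Uck2 (uridine-cytidine kinase) 3.26-fold, Dck (deoxycytidine kinase) 2.47-fold and Mat2a (methionine adenosyltransferase) 1.26-fold. On the TPM scale Mat2a had -0.08 (limma adjusted p = 0.535) and the other 4 kept their rise. Adss, the step from IMP toward AMP, had a log2 difference of 0.19 (edgeR adjusted p = 0.312). Samhd1, which degrades deoxynucleotides, had -0.86 (edgeR adjusted p = 0.191), with 302 CPM in ganglion replicate 2, 33.7 to 50.0 CPM in the other 3 and 45.1 to 66.8 CPM in tumors.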

How the data were processed

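Per the labels and the study's methods, the authors aligned reads of SMARTer stranded total RNA libraries to mm10 with STAR and ran RSEM, and deposited expected counts (not normalized) and TPM per gene. The labels call the molecule polyA RNA. Expected counts were rounded, filtered by filterByExpr (16665 of 24411 genes kept), normalized by TMM and fitted for all 5 groups together with edgeR 4.0.16 in R 4.3.3, giving 8 contrasts with Benjamini-Hochberg adjustment over all genes tested at 0.05. CPM are TMM-normalized. Alternatives were RLE and upper-quartile factors, no filter, DESeq2 1.42.0, a replicate block, terms for depth and sex (Ddx3y over 1 CPM), only the groups compared and leaving out each library. Added after seeing the data were limma 3.58.1 on log2(TPM + 1), only libraries over 20000000 counts and, for ratios, exchange of labels within same-numbered pairs. Ratios used log2 of TPM + 0.1 (SciPy 1.17.1). Deviations from the group means of same-numbered libraries had r over 0.1 in all 4 pairs of tumors and transgene-free Runx1t1 wild-type ganglia (0.12 to 0.33). In no other comparison did this hold for every pair, although a single pair elsewhere reached 0.32. The labels state no pairing, and libraries with different numbers were not compared in this way, so whether the samples are paired was not tested. The code was tested on simulated data. All 32 members are named by rule. Members and lists were chosen with earlier results of these data known. The header word Hom was read as homozygous wild type. Depth (10692299 to 38618757 counts) and 2 to 4 libraries a group limit precision. Gene positions are from GENCODE vM21 (GRCm38).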

Additional observations from a re-analysis of the deposited data

Results flagged for a closer look

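In 64 sets of 4 libraries (32 genes in tumors and in transgene-free Runx1t1 wild-type ganglia), a single library stood apart from the other 3 by Dixon's criterion in 6, and chance alone picks out about 1 set in 20. Replicate 2 of the transgene-free Runx1t1 wild-type ganglia was the library in 4 of the 6, all in deoxynucleotide supply. It had 24.3 CPM of Rrm2 against 1.92 to 2.27 in the other 3, and 52.9 CPM of Rrm1 against 21.7 to 23.3. Its Tyms was at 9.62 CPM against 2.24 to 2.87, and its Tk1 at 10.5 CPM against 0.857 to 2.50. The same library had the highest cycling, myeloid and lymphocyte marker sums of the 4, and the part of these cells in the 4 values was not tested. In tumors, Atic was at 93.6 CPM in replicate 1 against 120 to 125 in the others. Gmps was at 200.9 CPM in tumor replicate 4 against 123 to 132 in the others.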

How the results depend on the processing

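In tumors against transgene-free Runx1t1 wild-type ganglia, 556 of 576 recomputed member values kept their direction and side of the threshold. Of the rest, 11 in 5 genes no longer passed and 9 in 2 genes (Psph and Impdh1, neither called) changed sign. Psph (-0.015 as reported) was 0.025 with the replicate block, 0.019 with a sex term and -0.21 to 0.15 with a library left out. Impdh1 was -0.016 with a depth term and -0.087 on the TPM scale. Members called against MYCN Runx1t1 wild-type ganglia ranged from 15 to 26 and against MYCN ganglia labelled het from 17 to 28 with a library left out, beside 21.3% to 40.6% and 24.8% to 45.8% of all genes tested. Between the 2 wild-type ganglion groups the count went from 0 to 1 with upper-quartile factors (1.43% of all genes tested), 7 by DESeq2 (8.44%), 2 with a depth term (1.85%) and 0 to 12 with a library left out (12 without MYCN replicate 3, beside 10.9%, and 6 without transgene-free replicate 2, beside 4.08%). For the het label in MYCN ganglia it was 1 by DESeq2 (1.91%) and 0 to 3 with a library left out (at most 1.92%). The cause of these changes was not tested. Between tumors and transgene-free Runx1t1 wild-type ganglia the block left the calls at 26 higher and 4 lower. The labels give the blocked samples only a shared number, in this comparison as in the others. With the replicate block 30, 22 and 28 members were called in the 3 tumor comparisons (55.8%, 30.2% and 45.5% of all genes tested) and 0 between the wild-type ganglia (0%). In that last comparison 33 of 544 values, in 12 uncalled genes, changed sign. In libraries over 20000000 counts Phgdh was 0.31, Shmt2 0.26, Mthfd1l 0.11, Paics -0.066 and Nme2 0.26, and on the TPM scale Ctps2 was -0.0097 and Nme2 0.027. With the block Shmt2 was 0.019, Mthfd1l 0.050 and Nme2 0.15. Nme2 was 0.0048 with upper-quartile factors, 0.020 without the filter, 0.082 with a depth term and 0.0024 with a sex term, and Psph was -0.020 with a depth term. With a library left out the ranges were -0.47 to 0.24 for Phgdh, -0.27 to 0.25 for Psph, -0.37 to 0.13 for Shmt2, -0.0082 to 0.41 for Mthfd1, -0.37 to 0.10 for Mthfd1l, -0.0049 to 0.26 for Prps1, -0.040 to 0.18 for Paics, -0.033 to 0.19 for Adsl, -0.072 to 0.16 for Atic, -0.21 to 1.06 for Impdh1, -0.013 to 0.087 for Ctps2 and -0.12 to 0.24 for Nme2. The Nme1 to Nme2 ratio was -0.018 against all 7 transgene-free ganglia and -0.10 to 0.43 with a library left out. With 3 against 4 libraries, or labels exchanged within same-numbered pairs (the replicate block), 0 ratios can pass after adjustment, which says nothing of their stability.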
